A study of Mus musculus with 18 samples.

Results

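Transcript levels of 9 genes of insulin signalling and glucose transport were examined in mice on a high-salt diet: Insr, Irs1, Irs2, Pik3r1, Pik3ca, Akt2, Slc2a4, Tbc1d4 and Pde3b. They were picked by name and are 9 of the 21899 genes with a deposited value. The choice was made knowing that Pik3r1 was at about 50 percent of its control level in fat, so the diet difference of these genes in fat is given as a description with no test. The animals were male wild-type C57BL/6 mice aged 18 weeks. The high-salt group (HSD) had eaten high-salt chow with saline to drink for 12 weeks, and the control group (CON) had eaten chow with tap water. RNA of whole liver, of white adipose tissue taken from the epididymal depot (eWAT) and of quadriceps muscle was sequenced, with 3 CON and 3 HSD libraries for each tissue and 18 libraries in all. Each library is 1 mouse, and a mouse often gave more than 1 tissue, so the 18 libraries come from 8 mice. No group carries a transgene or an allele other than wild type, and the diet differed in both food and drinking water, whose parts cannot be told apart.

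Insulin binds its receptor, encoded by Insr, which phosphorylates the docking proteins IRS1 and IRS2. These recruit phosphoinositide 3-kinase, a dimer of a regulatory subunit such as p85alpha (from Pik3r1) and a catalytic subunit such as p110alpha (from Pik3ca), and its lipid product activates the kinase AKT2. In fat and muscle AKT2 phosphorylates TBC1D4, a brake on vesicles that carry the glucose transporter GLUT4 (from Slc2a4), and so brings GLUT4 to the cell surface. In fat AKT signalling also activates PDE3B, a phosphodiesterase that breaks down cAMP and restrains lipolysis. Liver takes up glucose mainly through GLUT2 (from Slc2a2), and the insulin signal there restrains glucose output.

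Values are FPKM, the fragments of a gene per kilobase of its length, scaled to the depth of the library, so levels may be compared between genes. Depth was 7628071 to 16637489 fragments per library. Replicate values are given in the order of replicates 1, 2 and 3, and errors are SD over 3 libraries unless an SE of a fitted difference is named. The markers of the labelled tissue were present in every library, and several libraries also carried those of another tissue or cell type. CON liver replicate 2 had a summed level of 5092 FPKM over 12 skeletal muscle markers, against 1.84 to 5.53 in the other 5 liver libraries and 63805 to 77983 in muscle. HSD eWAT replicate 2 had a sum of 28956 FPKM over 15 markers of epididymal epithelium, against 3.01 to 23.0 in the other 5 eWAT libraries, and its sum over 14 adipocyte markers was 8085, against 18690 to 25663. A sum over 9 male germ cell markers was 579, 255 and 37.2 in HSD eWAT and 1.87 to 48.2 in CON. A sum over 5 blood cell markers was 5626 in CON liver replicate 2 against 237 to 842 in the other liver libraries, and 5667 in CON eWAT replicate 1 against 243 to 744 in the other eWAT libraries. In liver, mitochondrially encoded genes took 25.7% to 60.8% of the fragments in CON and 15.4% to 44.4% in HSD. The share of 60.8% was in CON liver replicate 1. Its sum over 12 hepatocyte markers was 17422, against 40161 to 90020 in the other liver libraries. The parts of the blood cells and germ cells in the results were not tested.

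The start regions of 2 kinds of member are shown. Pik3r1 is annotated with separate starts that the gene-level FPKM adds together. Irs1 and Irs2 encode proteins of the same role but had opposite signs of the diet difference in muscle. Neither of these differences passed a test (adjusted p 0.178 for Irs1 and 0.537 for Irs2, limma). Pik3r1 lies on chr13:101680563-101768217 (GRCm38, minus strand) with 7 annotated transcripts. RefSeq (GRCm38.p6) gave 300-base windows, from 250 bases before to 50 after a start, for 6 of the 9 genes, and the 10 windows included 2 of Pik3r1. Insr, Slc2a4 and Pde3b had no entry. The first is the start at the 5′ end of the gene, chr13:101768168-101768467, and the second a start inside it, chr13:101692581-101692880, both on the minus strand. Capitals mark, on either strand, the GC box GGGCGG, the CCAAT box CCAAT and the TATA box TATAAA.
Pik3r1, 5′ start: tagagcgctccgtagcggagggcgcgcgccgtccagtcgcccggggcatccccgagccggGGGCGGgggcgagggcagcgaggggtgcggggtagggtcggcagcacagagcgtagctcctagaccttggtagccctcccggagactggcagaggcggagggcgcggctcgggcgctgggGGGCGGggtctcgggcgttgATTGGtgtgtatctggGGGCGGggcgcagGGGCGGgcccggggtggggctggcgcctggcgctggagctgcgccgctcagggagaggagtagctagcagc
Pik3r1, internal start: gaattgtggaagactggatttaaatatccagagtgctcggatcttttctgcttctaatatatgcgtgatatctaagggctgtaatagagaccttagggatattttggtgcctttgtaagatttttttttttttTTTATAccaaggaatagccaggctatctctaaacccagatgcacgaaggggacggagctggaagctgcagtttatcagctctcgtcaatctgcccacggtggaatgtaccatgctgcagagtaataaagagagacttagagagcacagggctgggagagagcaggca
The 5′ window was 75.7% G and C and held 4 GC boxes and 1 CCAAT box, the latter on the opposite strand (ATTGG). The internal window was 43.7% G and C and held neither of these. It had 1 match to the letters of the TATA box, on the opposite strand (TTTATA). The median over all 32851 windows was 52.7% G and C, and 35.7% of them held a GC box, 37.4% a CCAAT box and 13.6% a TATA box. The same search in Irs1 (chr1:82291390-82291689, minus strand) and Irs2 (chr8:11008880-11009179, minus strand) is shown for the E-box CACGTG, in capitals.
Irs1: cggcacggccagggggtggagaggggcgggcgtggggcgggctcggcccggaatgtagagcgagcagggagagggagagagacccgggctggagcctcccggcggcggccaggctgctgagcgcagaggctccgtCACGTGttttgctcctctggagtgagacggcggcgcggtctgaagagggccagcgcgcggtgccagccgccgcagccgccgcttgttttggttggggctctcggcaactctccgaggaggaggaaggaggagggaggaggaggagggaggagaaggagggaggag
Irs2: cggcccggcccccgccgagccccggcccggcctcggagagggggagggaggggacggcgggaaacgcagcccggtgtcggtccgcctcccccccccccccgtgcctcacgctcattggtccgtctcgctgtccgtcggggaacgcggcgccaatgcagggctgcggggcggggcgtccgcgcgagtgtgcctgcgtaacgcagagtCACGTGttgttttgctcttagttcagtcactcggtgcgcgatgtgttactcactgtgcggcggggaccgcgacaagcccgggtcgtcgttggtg
Both windows held 1 E-box, which 7.15% of all windows held, and none of the 10 windows of members held the FoxO element GTAAACA, which 3.65% of all windows held. The Irs1 and Irs2 windows were 71.3% and 72% G and C, and the longest stretch they shared was 10 bases long. The motifs were chosen after the sequences had been seen, and a match is a description of the letters.

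**Figure D1:**
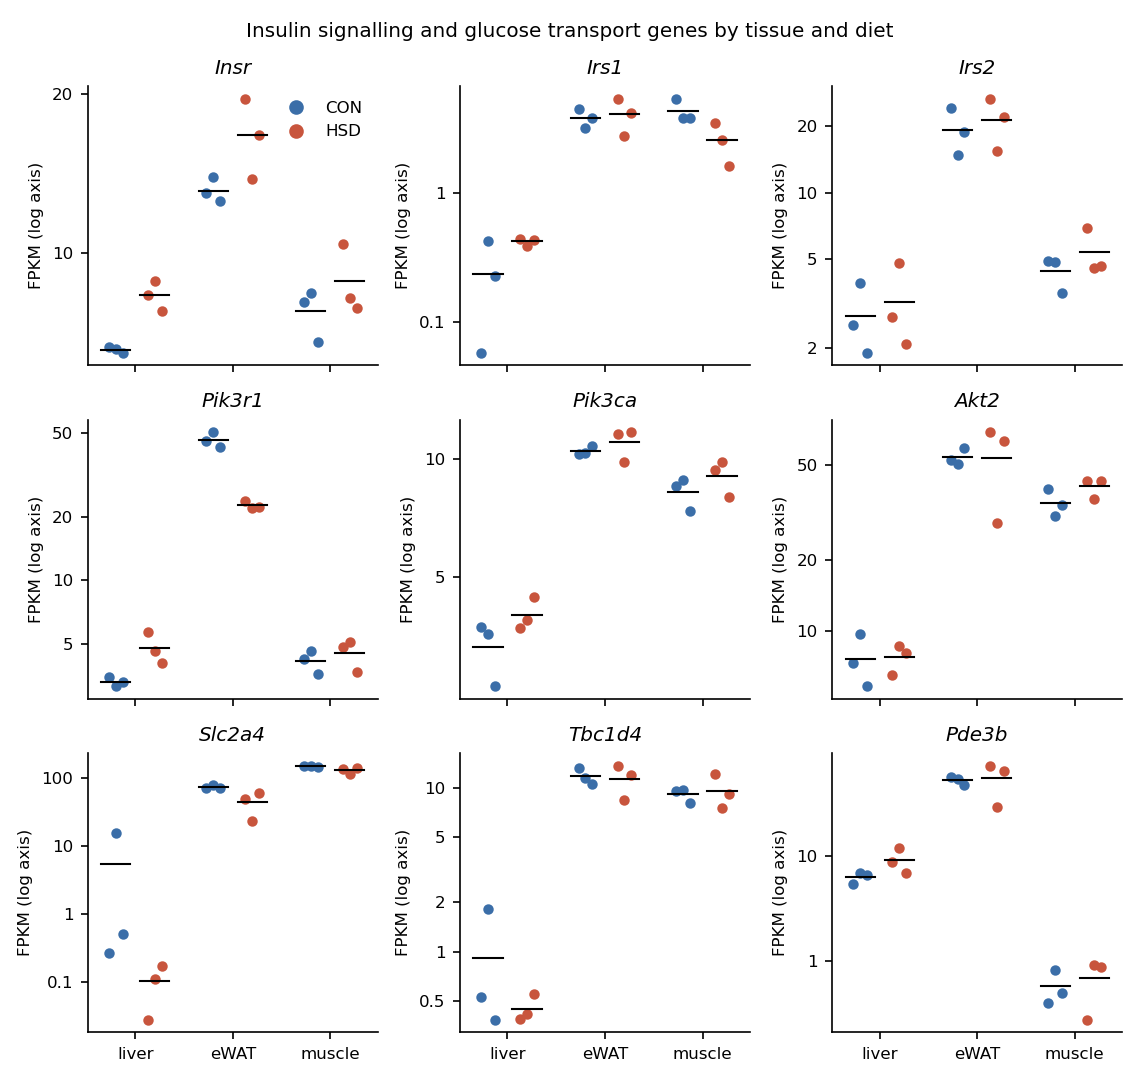
FPKM of the 9 genes in each of the 18 libraries on log axes, by tissue, with CON in blue and HSD in red; points are libraries and black lines are means of 3. Pik3r1 in eWAT sits at 42.8 to 50.4 in CON and 22.1 to 23.7 in HSD, and Slc2a4 in liver spans 0.0276 to 15.5.

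In control mice, 8 of the 9 genes were higher in eWAT than in liver by the test used here, limma with a Benjamini-Hochberg adjusted p under 0.05 and a change of at least 1 on the log2(FPKM + 0.5) scale, against 62.1% of all 12637 genes tested, and none was lower, against 7.26%. Against muscle, 3 of the 9 were higher in eWAT and none lower, against 46.9% and 7.98% of all genes. Muscle was higher than liver for 5 of the 9 and lower for 1, against 35.1% and 15% of all genes. These backgrounds were high, since the median difference over all genes was 1.36 for eWAT against liver, 0.93 for eWAT against muscle and 0.52 for muscle against liver, and median-ratio scaling of the libraries moved these medians to 0.01, 0.12 and 0.07.

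Insr, the receptor gene (chr8:3122061-3279617), had the smallest ratio between its highest and lowest tissue of the 9. It stood at 6.55 ± 0.0784 FPKM in CON liver, 7.75 ± 0.853 in CON muscle and 13.1 ± 0.707 in CON eWAT (n = 3 each). All CON eWAT libraries were above all CON libraries of the other tissues, and the difference from liver, 0.95 (SE 0.14, adjusted p 0.000124, limma), stayed under the fold threshold, which it passed in voom on the recovered fragments (1.04, adjusted p 0.000148, limma); relative to the other genes the order was turned around, since under median-ratio scaling eWAT stood below liver by -0.63 and below muscle by -0.22, and muscle below liver by -0.41. Muscle and liver did not differ past the test (0.22, SE 0.14, adjusted p 0.168, limma).

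The docking proteins differed in where their transcripts lay. Irs1 (chr1:82233101-82291416) was near 0 in CON liver, at 0.0573, 0.423 and 0.227 FPKM from 4 to 45 fragments, and at 3.88 ± 0.659 in CON eWAT and 4.38 ± 0.936 in CON muscle. Irs2 (chr8:10984681-11008458) was at 2.78 ± 1.02 in CON liver, 4.44 ± 0.794 in CON muscle and 19.3 ± 4.73 in CON eWAT. Irs1 was higher than in liver by 2.59 (SE 0.22, adjusted p 3.76e-06, limma) in eWAT and by 2.74 (SE 0.22, adjusted p 5.39e-06, limma) in muscle, and eWAT and muscle did not differ past the test (-0.15, SE 0.22, adjusted p 0.542, limma), a difference that passed under median-ratio scaling (-1.0, adjusted p 0.00705, limma). Irs2 was higher in eWAT than in liver by 2.61 (SE 0.26, adjusted p 1.17e-05, limma) and than in muscle by 1.99 (SE 0.26, adjusted p 0.000108, limma). Within a library, Irs2 exceeded Irs1 by 8.37 to 44.1 times in CON liver and by 4.56 to 5.32 times in CON eWAT, and the 2 were about level in CON muscle, at 0.904 to 1.26. Irs3, a rodent docking protein on the list of pathway genes, was the leading family member in eWAT at 31.2 ± 2.1 FPKM, or 57.8% of the summed Irs transcripts, and was at 0.118 in liver and 0.341 in muscle.

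Pik3r1 was far more unequal between tissues than Pik3ca. It stood at 46.3 ± 3.81 FPKM in CON eWAT, 4.16 ± 0.523 in CON muscle and 3.31 ± 0.158 in CON liver, higher in eWAT by 3.62 (SE 0.14, adjusted p 6.98e-08, limma) against liver and by 3.33 (SE 0.14, adjusted p 2.23e-07, limma) against muscle. Muscle and liver did not differ past the test, and their order turned under median-ratio scaling (0.29 as deposited, -0.32 rescaled). Its difference was larger than that of 95.0% of all genes for eWAT over liver and of 96.4% for eWAT over muscle. Pik3ca (chr3:32397671-32468486), its catalytic partner, was at 10.5 ± 0.256 in CON eWAT, 8.25 ± 0.768 in CON muscle and 3.3 ± 0.593 in CON liver. It was higher than in liver by 1.55 in eWAT and by 1.21 in muscle (SE 0.15 each, adjusted p 1.12e-05 and 9.59e-05, limma), calls that were lost under median-ratio scaling, where the differences were 0.01 and 0.62, and its order between eWAT and muscle turned (0.34 as deposited, -0.60 rescaled). The ratio of Pik3r1 to Pik3ca, which no scaling of a library can change, was 3.96 to 4.84 in CON eWAT, 0.883 to 1.26 in CON liver and 0.489 to 0.526 in CON muscle. Pik3r1 made up 62.7% of the summed transcripts of 5 class I regulatory subunits in CON eWAT, 34.7% in liver and 30.9% in muscle, where Pik3r2 led with 56.4% and 42.8%.

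Akt2 (chr7:27591552-27640826) was at 53.9 ± 4.44 FPKM in CON eWAT, 34.6 ± 4.59 in CON muscle and 7.66 ± 1.93 in CON liver. It was higher than in liver by 2.76 in eWAT and 2.12 in muscle (SE 0.21 each, adjusted p 2.16e-06 and 2.1e-05, limma), and the order of eWAT over muscle turned under median-ratio scaling (0.64 as deposited, -0.35 rescaled). Within a library, the ratio of Akt2 to its paralog Akt1 was 2.70 to 3.34 in CON muscle, 1.57 to 1.73 in CON eWAT and 1.16 to 1.40 in CON liver.

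Slc2a4 (chr11:69942539-69948188), the GLUT4 gene, was highest in muscle, where the CON libraries held 149, 151 and 144 FPKM, and next in eWAT, with 70.4, 78.8 and 72.1. The groups did not overlap, and the difference was -1.0 for eWAT against muscle. It did not pass the test over all 9 CON libraries (SE 0.95, adjusted p 0.356, limma) and passed it without CON liver replicate 2 (SE 0.14, adjusted p 0.000169, limma), since the spread is shared by the 3 tissues and Slc2a4 in CON liver was 0.264, 15.5 and 0.503. The 15.5 FPKM was read from 627 fragments in the library with skeletal muscle markers, and the other 5 liver libraries held 1 to 16 fragments. Slc2a4 made up 92.7% of the summed transcripts of 9 glucose transporter genes in CON muscle and 74.0% in CON eWAT, whereas Slc2a2 was 73.5% of them in CON liver, with 54.6% in CON liver replicate 2. Tbc1d4 (chr14:101442360-101609191) followed with 11.8 ± 1.37 in CON eWAT and 9.12 ± 0.884 in CON muscle, which did not differ past the test and turned order under median-ratio scaling (0.36 as deposited, -0.59 rescaled), and with 0.529, 1.82 and 0.385 in CON liver, where the highest was again CON liver replicate 2. The plot of both genes against the summed muscle markers shows that library between liver and muscle.

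**Figure D2:**
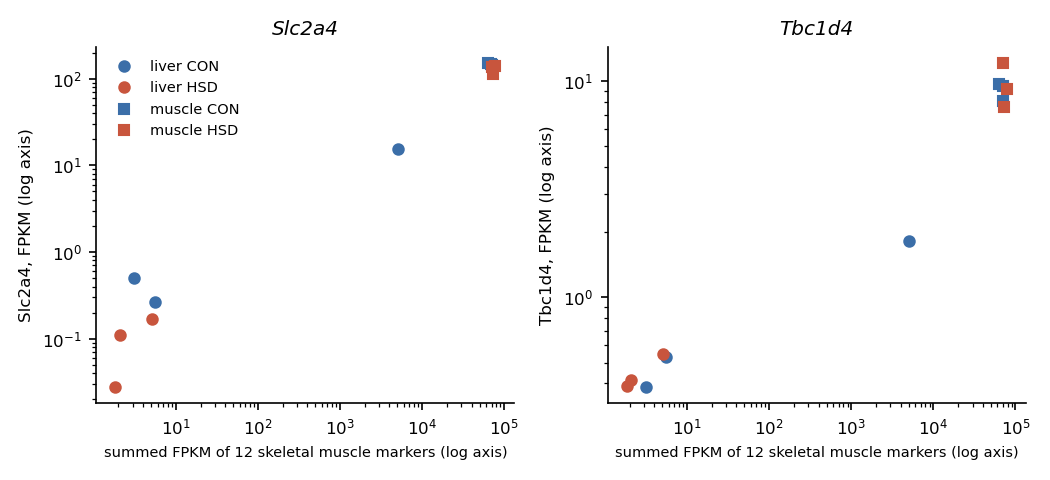
FPKM of Slc2a4 and Tbc1d4 against the summed FPKM of 12 skeletal muscle markers in liver (circles) and muscle (squares) libraries, all axes log. CON liver replicate 2, at 5092 FPKM of markers, holds 15.5 FPKM of Slc2a4 and 1.82 of Tbc1d4, and the other liver libraries at most 0.503 and 0.549.

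Pde3b (chr7:114415281-114539251), the antilipolytic phosphodiesterase, set the 3 tissues apart. The CON libraries held 55.9, 53.1 and 46.5 FPKM in eWAT, 5.38, 6.78 and 6.51 in liver and 0.406, 0.834 and 0.5 in muscle. The 3 tissues did not overlap, and each pair differed past the test: eWAT exceeded muscle by 5.61 and liver by 2.96, and muscle was below liver by -2.65 (SE 0.18 each, adjusted p 7.62e-08, 5.59e-07 and 2.16e-06, limma). Its paralog Pde3a was the smaller in fat and liver, with a ratio of Pde3b to Pde3a of 15.4 to 24.6 in CON eWAT and 27.9 to 152 in CON liver, and about level with it in CON muscle at 0.783 to 0.925.

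In eWAT, Pik3r1 was lower in HSD than in CON, with 45.6, 50.4 and 42.8 FPKM in CON and 23.7, 22.1 and 22.3 in HSD. The HSD mean was 49.1% of the CON mean, and the fitted difference was -1.01 (SE 0.098). Slc2a4 was also lower in every HSD library, with 48.5, 23.6 and 60.2 FPKM against 70.4, 78.8 and 72.1 (-0.84, SE 0.34). The genes were chosen knowing the Pik3r1 value in this contrast, so the eWAT diet differences of all 9 carry no test. Of the 9 genes, 2 were lower without overlap and 0 higher without overlap, where 12.4% and 16.2% of all 13740 genes were, which is a description of the chosen genes. In this tissue limma called 0% of all genes at the adjusted threshold, and 16.7% (2298) had an unadjusted p under 0.05. In bulk tissue, fewer cells of a type and less RNA per cell cannot be told apart. The summed adipocyte markers stood at 24506 and 25663 in HSD replicates 1 and 3, above the 18690 to 19747 of CON, and at 8085 in HSD replicate 2. Adipoq, which encodes the adipocyte hormone adiponectin, was 1937 and 2059 in HSD replicates 1 and 3, against 1974 to 2129 in CON and 692 in HSD replicate 2, and 3 of the 14 adipocyte markers were lower and 0 higher in every HSD library.

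The other 7 genes overlapped between the diets, and each had its lowest HSD value in HSD eWAT replicate 2. For Insr and Irs2 that value lay within the CON range. Akt2 was at 52.3, 50.5 and 58.9 in CON and 68.3, 28.5 and 62.6 in HSD. Pde3b was at 55.9, 53.1 and 46.5 in CON and 70.6, 28.6 and 63.6 in HSD. For both, the 2 other HSD libraries were above all CON libraries and replicate 2 below them. Insr was at 13.0, 13.9 and 12.5 in CON and 19.6, 13.8 and 16.8 in HSD. Irs1 (2.80 to 5.40 in HSD), Irs2 (15.4 to 26.5), Pik3ca (9.84 to 11.7) and Tbc1d4 (8.41 to 13.6) also had their lowest HSD value in replicate 2. Without that library the differences were 0.28 for Akt2, 0.37 for Pde3b, -0.44 for Slc2a4 and -0.99 for Pik3r1, and HSD Pik3r1 stood at 49.8% of CON. The Pik3r1 value was thus nearly as large without the library that carried epididymal markers, and the signs of Akt2, Pde3b and Tbc1d4 turned, the last from -0.076 to 0.12.

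**Figure D3:**
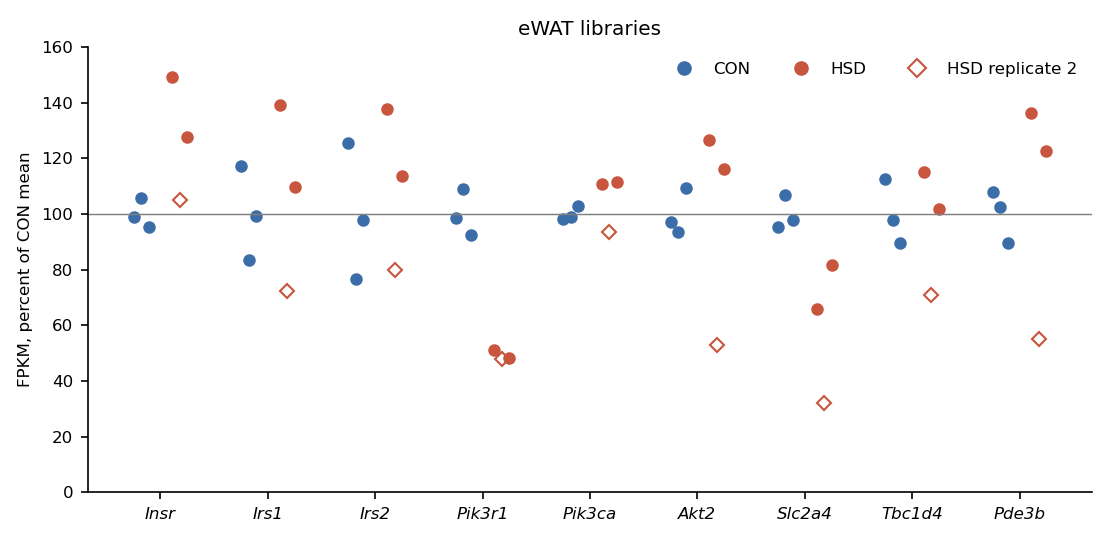
FPKM of the 9 genes in each eWAT library as a percent of the CON mean of that gene, with CON in blue, HSD in red and HSD replicate 2, the library with epididymal markers, as open diamonds. The HSD mean of Pik3r1 is 49.1% with all libraries and 49.8% without replicate 2, and that of Slc2a4 59.8% and 73.7%.

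Ratios within a library rest on the same contrast and are likewise a description. The ratio of Pik3r1 to Pik3ca was 4.42, 4.84 and 3.96 in CON and 2.04, 2.25 and 1.9 in HSD eWAT, and its share of the 5 regulatory subunits was 62.7% in CON and 45.8% in HSD, while Pik3r2 stood at 17.1 ± 0.228 FPKM in CON and 14.7 to 16.9 in HSD. The ratio to Plin1, an adipocyte lipid droplet gene, was 0.0911, 0.0898 and 0.0734 in CON and 0.0422, 0.122 and 0.0415 in HSD, so that it was lower in 2 HSD libraries and higher in replicate 2. For Slc2a4 the ratio to Plin1 was 0.140, 0.141 and 0.124 in CON and 0.0863, 0.130 and 0.112 in HSD, and the groups overlapped. Macrophage markers in eWAT had a sum over 10 genes of 556 to 828 in CON and 241 to 522 in HSD, with 4 of 10 lower in every HSD library. Over all genes tested in eWAT, 12.4% were lower and 16.2% higher in every HSD library. Of 12 hepatocyte markers 11 were lower in every HSD library. Among them was Alb, the albumin gene, at 53.9 to 167 FPKM in CON and at most 7.85 in HSD. Of the 12, those at 1 FPKM or more numbered 11, 12 and 10 in CON and 5, 3 and 2 in HSD. The sum over the 12 was 1120 to 1623 in CON and 671 to 2577 in HSD, where it rested on these few genes. Skeletal muscle markers summed to 35.6 to 41.3 in CON and 52.8 to 63.9 in HSD eWAT, with 6 of 12 higher in every HSD library. The part of these cells and of the germ cell markers in the Pik3r1 value was not tested.

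**Figure D4:**
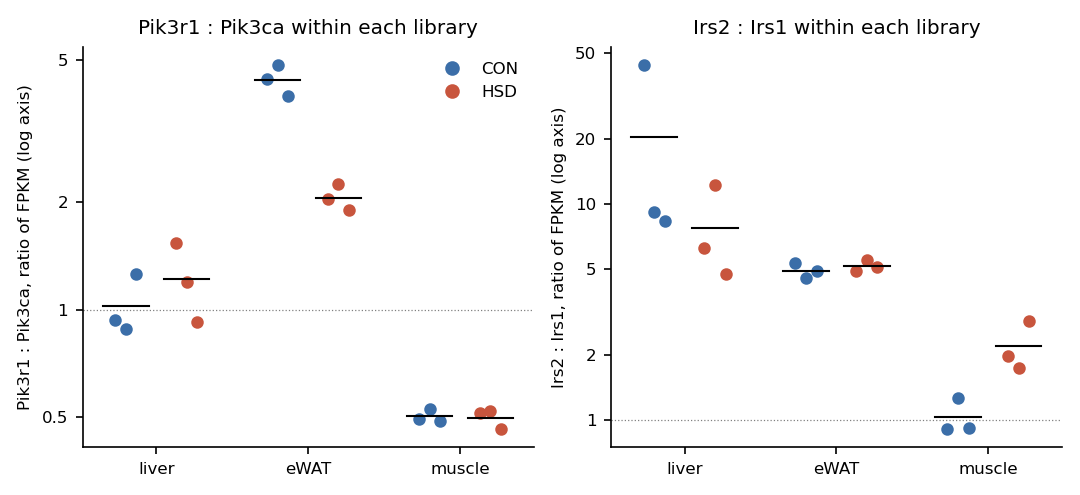
Ratios of FPKM within each library, Pik3r1 to Pik3ca (left) and Irs2 to Irs1 (right), on log axes by tissue and diet; points are libraries, black lines means of 3, and the dotted line marks a ratio of 1. Pik3r1 to Pik3ca is 3.96 to 4.84 in CON and 1.9 to 2.25 in HSD eWAT, and Irs2 to Irs1 is 0.904 to 1.26 in CON and 1.74 to 2.86 in HSD muscle.

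In muscle, none of the 9 genes passed the test for an effect of the diet. Irs1 came nearest, with 5.46, 3.83 and 3.85 FPKM in CON and 3.52, 2.61 and 1.63 in HSD, every HSD library being below every CON library. The difference was -0.69 (SE 0.23, unadjusted p 0.0126, adjusted p 0.178, limma). With the replicate number as a block, a label that does not pair CON with HSD mice, it was past the adjusted threshold but under the fold threshold (SE 0.14, adjusted p 0.0444, limma). Over 17 alternatives the difference lay between -0.91 and -0.45, with adjusted p from 0.0444 to 0.435 in limma. Irs2 went the other way without passing the test, with 4.94, 4.85 and 3.52 in CON and 6.94, 4.56 and 4.67 in HSD (0.24, SE 0.18, adjusted p 0.537, limma). Within a library, the ratio of Irs2 to Irs1 was 0.904, 1.26 and 0.914 in CON and 1.97, 1.74 and 2.86 in HSD, whereas in eWAT it was 4.56 to 5.32 and 4.91 to 5.48. The ratio was looked at after the values had been seen and has no test beyond that of its parts.

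Slc2a4 in muscle was 149, 151 and 144 FPKM in CON and 137, 114 and 141 in HSD, again without overlap, and the difference of -0.18 did not pass (SE 0.12, adjusted p 0.488, limma). The sum of 12 skeletal muscle markers was 63805 to 70175 in CON and 70887 to 77983 in HSD, and 3 of the 12 were lower and 0 higher in every HSD library. Pik3r1 stood at 4.23, 4.65 and 3.61 in CON and 4.82, 5.13 and 3.70 in HSD, and its ratio to Pik3ca was 0.489 to 0.526 in CON and 0.463 to 0.522 in HSD. The remaining differences ran from 0.05 for Tbc1d4 to 0.23 for Akt2 (adjusted p 0.908 and 0.439, limma), with Tbc1d4 at -0.0064 when mitochondrially encoded genes were left out. Of the 9 genes, 0 were called where 0.323% of 10834 genes were (35 genes, or 54 with the replicate number as a block), 1 had an unadjusted p under 0.05 where 16.3% had, and 2 were lower and 0 higher without overlap where 15.6% and 6.72% were. Macrophage markers summed to 54.6 to 87.6 FPKM in CON and 39.8 to 45.4 in HSD muscle, and 4 of 10 were lower in every HSD library; their part in the Irs1 value was not tested.

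In liver, 0 of the 8 genes tested passed, and limma called 0% of the 10317 genes. None of the 8 had an unadjusted p under 0.05, which 5.74% of all genes (592) had, and voom on the recovered fragments called 0 as well. Pik3r1 was 3.47, 3.16 and 3.3 FPKM in CON and 5.67, 4.64 and 4.09 in HSD, every HSD library being above every CON library, in the direction opposite to eWAT (0.47, SE 0.21, unadjusted p 0.0625, adjusted p 0.764, limma). Insr was 6.62, 6.57 and 6.47 in CON and 8.33, 8.83 and 7.74 in HSD (0.32, SE 0.22, adjusted p 0.764, limma), and turned to -0.080 when mitochondrially encoded genes were left out and the rest rescaled. Pde3b was 5.38, 6.78 and 6.51 in CON and 8.62, 11.8 and 6.85 in HSD (0.49, SE 0.28, adjusted p 0.764, limma). These 3 were higher and Slc2a4 lower without overlap, where 8.62% of all genes were higher and 3.47% lower. Leaving the mitochondrial genes out moved the median over all genes from 0.13 to -0.23, and the Pik3r1 and Pde3b differences stayed above 0 in each of 18 alternatives, from 0.08 to 0.70 and from 0.09 to 0.72. With array weights, which give each library its own variance, limma gave Pik3r1 an adjusted p of 6.21e-05 at a difference of 0.70, still under the fold threshold. Under these weights 7123 of the 10317 genes had an adjusted p under 0.05, and 926 were called in place of 0. Macrophage markers summed to 35.7 to 57.0 FPKM in CON and 20.0 to 31.2 in HSD liver, and their part in these values was not tested.

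Slc2a4 in HSD liver was 0.0276, 0.111 and 0.168 FPKM from 1, 4 and 5 fragments, and its difference of -1.94 (SE 1.05, adjusted p 0.764, limma) rested on the 15.5 FPKM of CON liver replicate 2; without that library the gene was under the expression filter and had no fit. Tbc1d4 was 0.388, 0.414 and 0.549 in HSD, against 0.529, 1.82 and 0.385, and was under the filter too without it. Irs1 in liver was 0.441, 0.390 and 0.435 in HSD and was under the filter with all 6 libraries. Irs2 (2.76, 4.80 and 2.07 in HSD), Pik3ca (3.70, 3.88 and 4.43) and Akt2 (6.55, 8.67 and 8.14) overlapped with CON, and their differences of 0.16, 0.25 and 0.04 turned to -0.21, -0.12 and -0.36 without mitochondrially encoded genes.

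A direct test of the diet effect in muscle against that in liver called none of the 9 genes, where 0.0264% of 11381 genes (3 genes) were called. Some mice gave both tissues, and this fit took the libraries as independent, without mouse as a block. Of the 9, 1 had an unadjusted p under 0.05, as did 7.65% of all genes. Irs1 had the difference with the smallest p (-1.05, SE 0.35, unadjusted p 0.0110, adjusted p 0.464, limma), with the liver side read from 4 to 45 fragments. Over 24 alternatives it lay between -1.89 and -0.80. It passed over the libraries listed in the study's quality table (-1.22, adjusted p 0.0435, limma), a set that leaves out CON replicate 2 and HSD replicate 3 of liver, and there 1409 genes were called in place of 3.

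The wider pathway was followed in 8 lists of 122 other genes. In muscle, 106 could be tested, and 2 were called, both on the list of FoxO factors and FoxO target genes, 1 higher and 1 lower. Fbxo32, which encodes the muscle ubiquitin ligase atrogin-1, rose from 58.3 ± 9.39 to 149 ± 35.4 FPKM (1.33, SE 0.19, adjusted p 0.0213, limma), and Foxo6, which encodes a FoxO transcription factor, fell from 1.86 ± 0.446 to 0.622 ± 0.0651 (-1.06, SE 0.17, adjusted p 0.0289, limma), read from 19 to 71 fragments. Both calls were lost without CON replicate 1, CON replicate 3 or HSD replicate 2, with adjusted p from limma of 0.0689, 0.0894 and 0.0702 for Fbxo32 and 0.1002, 0.119 and 0.0900 for Foxo6, and that of Foxo6 also without HSD replicate 3 (0.0917). Over all 17 alternatives the Fbxo32 difference stayed between 1.17 and 1.52 and that of Foxo6 between -1.54 and -0.81. The next was Sgk1, a kinase related to AKT, at 65.3 ± 3.68 in CON and 38.3 ± 4.50 in HSD (-0.77, SE 0.13, adjusted p 0.0334, limma), and Eif4ebp1, which encodes the translation repressor 4E-BP1 and was picked out after its value was seen, was at 16.2 ± 1.41 and 28.6 ± 4.12 (0.80, SE 0.14, adjusted p 0.0368, limma). Both were past the adjusted threshold and under the fold threshold, where 0.895% of all genes were past the adjusted threshold. The median over the lists was -0.02, and -0.06 over all genes; 20 of the 106 were lower and 12 higher without overlap, beside 15.6% lower and 6.72% higher of all genes. Without overlap, 4 of 14 receptor-proximal genes were lower and 0 higher, 3 and 1 of 9 phosphoinositide 3-kinase subunits, 1 and 1 of 9 phosphatases, 1 and 3 of 21 genes of AKT and its mTOR branch, and 4 and 2 of 22 genes of GLUT4 traffic. The same counts were 4 lower and 2 higher of 8 other transporters and hexokinases, 2 and 3 of 11 FoxO factors and targets, and 1 and 0 of 12 genes of cAMP and antilipolysis.

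In liver, 98 of the 122 were tested, none was called and 6 had an unadjusted p under 0.05, all higher, where 5.74% of all genes had such a p in either direction. The 3 with the smallest p were Klf15, a transcription factor of fasting metabolism, at 45.9 ± 7.34 in CON and 86.1 ± 11.1 in HSD (0.91, SE 0.33), Pck1, the gene of a rate-limiting enzyme of gluconeogenesis, at 933 ± 129 and 2009 ± 180 (1.11, SE 0.41), and Slc2a1, the GLUT1 gene, at 1.85 ± 0.609 and 3.62 ± 1.13 (0.80, SE 0.30), all with an adjusted p of 0.764 from limma. All 3 passed with array weights, under which 926 genes did. Klf15, Pck1 and Slc2a1 differed by 0.49, 0.69 and 0.46 without mitochondrially encoded genes, whose share of the fragments was 25.7% to 60.8% in CON and 15.4% to 44.4% in HSD, and by 0.48, 0.51 and 0.77 under quantile normalization. Of the 98, 8 were higher without overlap and 0 lower, where 8.62% and 3.47% of all genes were, and their median was 0.16 against 0.13 over all genes. In eWAT, 117 were tested, none was called, 13 higher and 6 lower genes had an unadjusted p under 0.05, as 16.7% of all genes had, and 16 were higher and 14 lower without overlap, as 16.2% and 12.4% of all genes were. The largest such differences were in Slc2a3, the GLUT3 gene (2.99 ± 0.725 in CON, 9.82 ± 6.75 in HSD, 1.40, adjusted p 0.236, limma), G6pc, the glucose 6-phosphatase gene (2.01 ± 1.29 and 0.580 ± 0.267, -1.13, adjusted p 0.257, limma), and Cav1, the caveolin gene of the adipocyte membrane (1195 ± 69.4 and 662 ± 295, -0.97, adjusted p 0.308, limma). The highest Slc2a3 value (17.5) and the lowest Cav1 value (327) were both in HSD replicate 2, the library with epididymal markers. Without that library the differences were 0.90 for Slc2a3, -0.53 for Cav1 and -1.14 for G6pc. G6pc was lower in every HSD library of eWAT, as were 11 of 12 hepatocyte markers, whose part in the G6pc value was not tested.

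**Figure D5:**
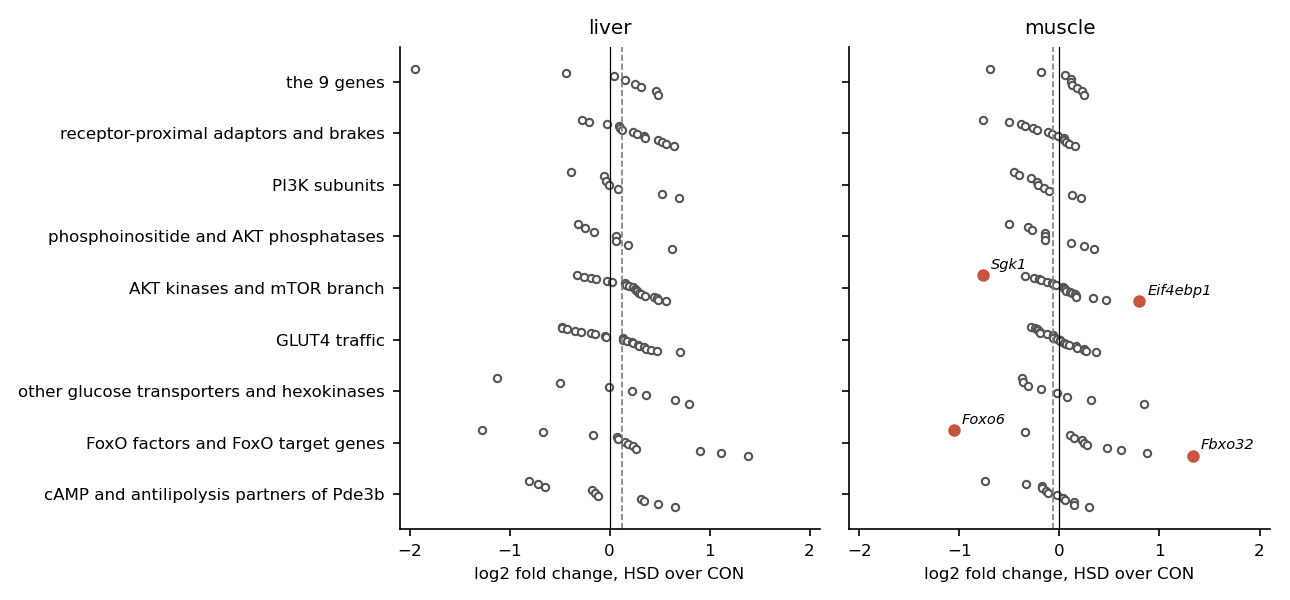
Fitted log2 fold changes of HSD over CON in liver (left) and muscle (right) for the 9 genes and for 8 lists of pathway genes, 1 point per gene tested; filled red points had an adjusted p under 0.05 in limma, and the dashed line is the median over all genes. Fbxo32 (1.33), Eif4ebp1 (0.80), Sgk1 (-0.77) and Foxo6 (-1.06) in muscle are the filled points.

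The genes whose profile was most like that of Pik3r1 were found by Pearson's r of log2(FPKM + 0.5), as a description with no test. Over the 18 libraries, with 11742 genes searched, they were Aldh3b2 (0.989), Tdrd7 (0.984), Caprin1 (0.984), Fmr1 (0.983) and Oxtr (0.983). Over the 6 eWAT libraries, with 12422 genes searched, they were Matn2 (0.995), Mup7 (0.995), Apbb1 (0.995), Cyrib (0.995) and Ndufaf7 (0.994); the 6 libraries fall into 2 diet groups, and the Pik3r1 values into the same 2. For the other members the most alike over the 18 libraries were Phf3 for Insr, Urgcp for Irs1, Pitpnb for Irs2, Ndrg3 for Pik3ca, Ctdsp2 for Akt2, Tmem182 for Slc2a4, Aebp1 for Tbc1d4 and Sh3bgrl for Pde3b. The libraries share tissues and mice, so these values are not over independent points.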

How the data were processed

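RNA of liver, eWAT and quadriceps muscle was extracted with Trizol and made into stranded total RNA libraries. The authors trimmed reads with cutadapt 1.9.3, aligned them to mm10 with hisat2 2.0.4, and deposited FPKM per gene. The methods name cuffdiff for the FPKM, with an Ensembl annotation whose release is not given in the sources used here. The submitters' processing notes also name HTSeq 0.9.1 and mm9. Which tool gave the deposited values was not determined. FPKM depend on the share of a library taken by a few abundant genes, such as the mitochondrial ones. Whole fragments were recovered with GENCODE M21 exon lengths for 18346 of the 18822 genes above 0 (within 0.05 fragments), and gave the depths of 7628071 to 16637489.

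HSD was compared with CON in each tissue, and CON tissues with each other, by limma 3.58.1 (R 4.3.3) after adding 0.5 to each FPKM and taking log2. Genes whose FPKM averaged under 0.5 were dropped, and the variance was moderated with an intensity trend. Calls required both a Benjamini-Hochberg adjusted p below 0.05, over every gene tested, and a change of 1 or more on the log2 scale in either direction. Fold changes on this scale understate those of low genes, and tests are two-sided. With 3 libraries against 3, exact permutation could not give a p below 0.1. The code was tested on simulated data. DESeq2, the authors' tool, needs counts, and the deposited values are FPKM. It was not run on the recovered fragments either, so the numbers of calls here are not those of the authors' method. All 18 libraries entered, and the 15 of them in the quality table of the study were an alternative. Further alternatives were other pseudocounts, filters and scalings, array weights, and omission of each library or of mitochondrial genes. The replicate number was a block in the diet comparisons, and the mouse in the control tissues only. Voom on recovered fragments was added after the data were seen. Deviations of same-numbered CON and HSD libraries correlated at 0.383, 0.177 and 0.184 in muscle, so the blocked values are given there as an alternative. In liver the correlations were -0.473, 0.395 and -0.213 and in eWAT -0.197, 0.0608 and 0.414. The labels do not pair CON with HSD mice by this number.

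The 9 genes, the pathway and marker lists and the tests were chosen with earlier results of these data known. Named besides the members are pathway genes called in a diet comparison, the 3 with the smallest p in liver and in muscle, the 3 with the largest non-overlapping difference in eWAT, the leading list members where levels are compared, and the genes most like each member. Promoter windows are from RefSeq (GRCm38.p6) and gene positions from GENCODE M21. Figures were drawn with matplotlib 3.10.9.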

Additional observations from a re-analysis of the deposited data

Results flagged for a closer look

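The diet difference of Pik3r1 had opposite signs in liver and eWAT. Every HSD library of liver was above every CON library (0.47, SE 0.21), as in 8.62% of all genes there. The liver difference did not pass the test (adjusted p 0.764, limma). Every HSD library of eWAT was below every CON library (-1.01, SE 0.098), as in 12.4% of all genes there. The liver difference was 1.47 above that of eWAT on the log2 scale. This gap was not tested, since the eWAT contrast was in view when the gene was chosen.

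Sgk1 was higher in every HSD library of eWAT (16.8 FPKM in CON, 27.1 in HSD, 0.66, SE 0.18), as were 16.2% of all genes. In eWAT 0 genes had an adjusted p under 0.05 in limma. Sgk1 was lower in every HSD library of muscle (65.3 in CON, 38.3 in HSD, -0.77, SE 0.13), as were 15.6% of all genes. The gap of 1.43 between eWAT and muscle was not tested. Pik3r1 and Sgk1 were found by searching the members and named pathway genes for opposite differences without overlap in a pair of tissues. Groups of 3 libraries are too small for a check of single libraries against the rest of their group.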

How the results depend on the processing

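Over the alternatives that leave no library out, 742 tested differences of single genes kept their direction and side of the threshold, 11 came to pass it, 8 no longer passed it and 32 reversed. The diet differences of the 9 genes in eWAT carry no test: 102 values kept their sign and 6 turned, with quantile normalization Irs1 (-0.12), Pik3ca (-0.012) and Pde3b (0.0053), and with array weights Akt2 (0.26), Tbc1d4 (0.15) and Pde3b (0.38). For counts of called genes, array weights gave 926 in the diet comparison of liver (0 as reported), 220 in eWAT (0) and 106 for muscle minus liver (3), and the libraries of the study's quality table gave 35 in liver and 1409 for muscle minus liver. In muscle (35 as reported) the adjusted p alone gave 97, no filter 7, voom on recovered fragments 72 and the replicate block 54. Muscle minus liver had 1 without mitochondrial genes, 0 with the replicate block and 0 with voom. The replicate number is a label, and the labels do not pair CON with HSD mice by it. Beside these counts and the adjusted p of Irs1 the replicate block changed no call of a gene named in muscle. Blocking the control tissues by mouse (correlation 0.0709) left 8760, 6953 and 6314 calls.

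Rescaling turned the most values. Control eWAT against liver had 5291 calls under median-ratio scaling (2706 higher, 2585 lower) and 5150 under quantile normalization (2898 and 2252), against 7851 higher and 917 lower as reported; eWAT against muscle went from 5924 higher and 1009 lower to 2597 and 2218 or 2519 and 2153, muscle against liver from 4436 and 1893 to 3040 and 2950 or 3079 and 2567, and the muscle diet calls from 11 and 24 to 13 and 17 or 12 and 17. Under median-ratio and quantile scaling in turn, Insr was -0.63 and -0.28 for eWAT against liver, -0.22 and -0.021 for eWAT against muscle and -0.41 and -0.26 for muscle against liver; Pik3ca was -0.60 and -0.45 and Tbc1d4 -0.59 and -0.40 for eWAT against muscle, where Akt2 was -0.35 under the first; Pik3r1 was -0.32 and -0.19 for muscle against liver; Akt2 was -0.10 and -0.15 for the liver diet; and for muscle minus liver Insr was 0.029 and 0.10 and Pik3ca 0.043 and 0.021. In HSD libraries in place of CON, Irs1 was 0.60 for eWAT against muscle and Pik3r1 -0.069 for muscle against liver. Without mitochondrial genes, the liver diet difference was -0.080 for Insr, -0.21 for Irs2, -0.12 for Pik3ca and -0.36 for Akt2, that of Tbc1d4 in muscle -0.0064, and muscle minus liver 0.19 for Insr and 0.19 for Pik3ca. Array weights turned muscle minus liver to -0.69 for Irs2, -0.23 for Akt2 and -0.023 for Tbc1d4, and the quality table libraries turned Irs2 to -0.38. Liver Slc2a4 (adjusted p 0.00987, limma) and eWAT Slc2a3 (adjusted p 0.0452, limma) passed with array weights. In muscle, Fbxo32 missed the threshold without a filter (adjusted p 0.0757, limma), as did Foxo6 (0.103), which also missed it with a pseudocount of 1 (-0.81) and under quantile normalization (adjusted p 0.0682). The cause of these changes was not tested.

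Leaving out each library gave 0 to 1 calls in liver, 10 to 61 in muscle, 0 to 160 in eWAT, 0 to 28 for muscle minus liver, 8480 to 9043 for eWAT against liver, 6640 to 7058 for eWAT against muscle and 6052 to 6743 for muscle against liver. The count was 1 without CON liver replicate 2. In muscle it was 13 and 10 without CON replicates 1 and 3, and 61, 15 and 23 without HSD replicates 1, 2 and 3. In eWAT it was 160 without HSD replicate 2 and 1 without CON replicate 3. For muscle minus liver it was 12 without CON liver replicate 2, 28 without HSD liver replicate 3, and 0 without HSD liver replicate 1 or without CON muscle replicates 1 or 3 or HSD muscle replicates 2 or 3. The range included the opposite sign for Irs2 (-0.13 to 0.39) and Akt2 (-0.12 to 0.22) in liver, Tbc1d4 (-0.12 to 0.20) and Pde3b (-0.035 to 0.40) in muscle, Irs2 (-0.15 to 0.38) and Pik3ca (-0.20 to 0.012) for muscle minus liver, and Irs1 (-0.26 to 0.0016) for eWAT against muscle. In the diet difference in eWAT, described with no test, it did so for Irs1 (-0.13 to 0.29), Irs2 (-0.042 to 0.34), Akt2 (-0.34 to 0.28), Tbc1d4 (-0.22 to 0.12) and Pde3b (-0.27 to 0.37), while Pik3r1 (-1.06 to -0.95) and Slc2a4 (-1.11 to -0.44) kept their sign. At these depths a gene with under 50 fragments, such as Irs1 in liver, has a value of low precision.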
